A study of Equus caballus with 20 samples.

Results

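The nuclear-encoded respiratory chain genes are described here in the oviduct epithelium of mares 4 days after ovulation. They were chosen by name: every feature of the table whose symbol starts with NDUF, UQCR, COX4I, COX5, COX6, COX7, COX8 or ATP5, together with SDHA, SDHB, SDHC, SDHD, CYC1 and CYCS. This gave 72 genes of 26740 features, and each of the 72 had at least 1 read in the 20 libraries. A feature entered the tests when it exceeded 1 CPM, a read number scaled to library size, in at least 5 libraries, which 69 of the 72 genes and 14692 of all features did. COX4I2 (0 to 6 reads per library), COX6A2 (0 to 2 reads) and COX7B2 (1 read, in a single library) did not, and they are described below by their reads.

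The tissue was epithelium taken where the ampulla of the oviduct passes into the isthmus, from Warmblood mares, and the labels name no agent or altered gene. The mares were either pregnant or cyclic (not pregnant), and the oviduct lay on the side of ovulation (ipsilateral) or on the opposite side (contralateral). This makes 4 groups of 5 biological replicates, named PI (pregnant ipsilateral), PC (pregnant contralateral), CI (cyclic ipsilateral) and CC (cyclic contralateral), with the replicate number behind the letters. The comparisons ask how a pregnancy, with an embryo in the tube on the ovulation side, and the side of ovulation itself go with expression in the epithelium.

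The respiratory chain sits in the inner mitochondrial membrane. Complex I takes electrons from NADH and complex II from succinate. Both pass them through coenzyme Q to complex III, from there through cytochrome c to complex IV, which reduces oxygen. The proton gradient built along the way drives complex V, the ATP synthase. A small number of subunits is encoded by mitochondrial DNA and all others by nuclear genes, which are transcribed in the nucleus and whose proteins are imported. Multiciliated cells of the oviduct hold many mitochondria, since the beating of cilia consumes ATP.

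The deposited values are counts scaled between libraries, called normalized counts below. The read number behind each could be recovered and ran from 2795168 (PI1) to 10126484 (CI2) reads per library. PI1 (2795168 reads), CC4 (3407805) and CI3 (3856941) were the 3 shallowest libraries. The floor, the value that 3 reads give, lay between 1.75 and 7.03 normalized counts. Summed over the 20 libraries, 1 feature led all others, and its share of a library's reads ran from 0.310% (CC5) to 27.8% (PI4). The epithelial markers EPCAM (1115 to 2413 normalized counts) and CDH1 (1509 to 4576) were present in every library, and so were the multiciliated markers FOXJ1 and DNAH5. Of the 6 secretory markers, PAX8 was at 1410 to 2491 normalized counts, KRT7 at 137 to 801 and MUC16 at 23.8 to 238 in all libraries, while SLC26A4 (4.69 to 40.5), OVGP1 (0 to 15.4) and MSLN (0 to 5.83) were low. Their sum ran from 2104 to 2625 in PI, 1880 to 2360 in PC, 2085 to 3155 in CI and 1840 to 2941 in CC. The erythrocyte genes HBB and SLC4A1 had reads in 5 libraries each and at most 3.35 normalized counts.

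The 72 genes together took between 0.204% of the reads in PI1 (95% exact Clopper-Pearson interval 0.198 to 0.209%) and 0.570% in CC2 (0.565 to 0.575%). These intervals, like the floors, cover counting error only. The share therefore differed far beyond counting error between libraries, and the next values show where that difference lay.

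**Figure D1:**
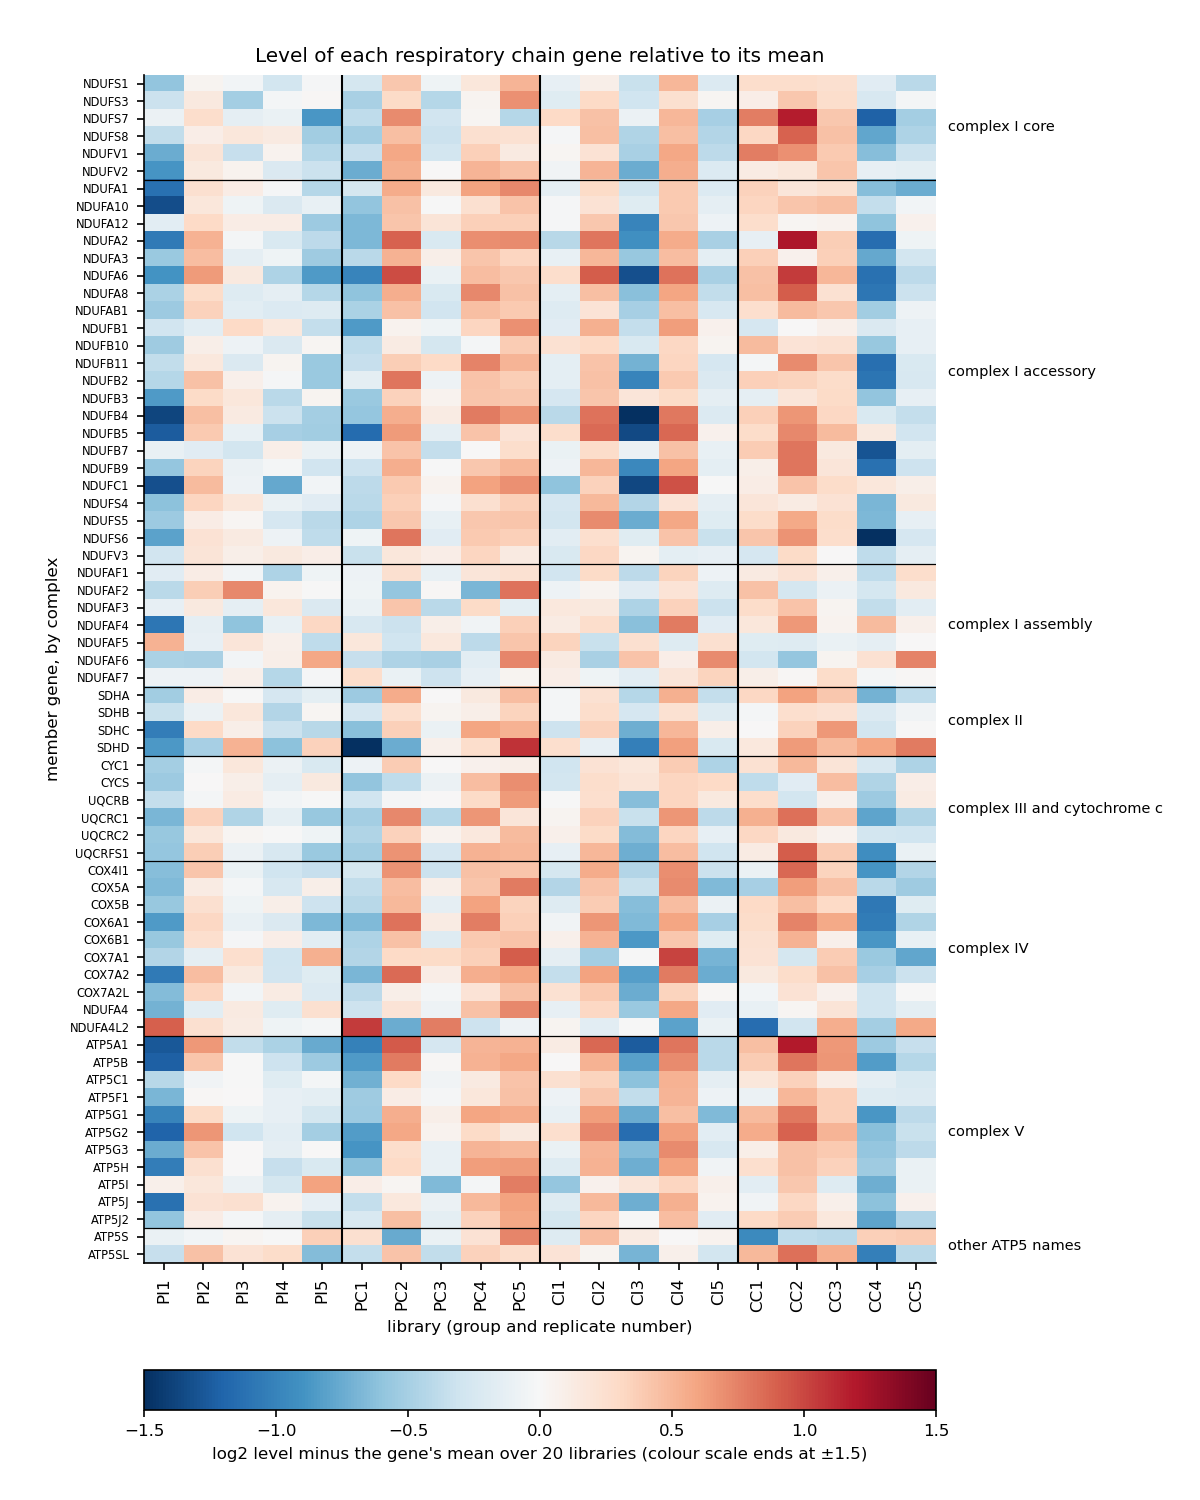
Rows are 68 of the 69 tested genes ordered by complex, columns are the 20 libraries, and the colour is the log2 level minus the gene's own mean over the 20 libraries. Most rows change colour together from library to library, with PI1, PC1, CI3 and CC4 low and PC5, CI4 and CC2 high, while rows of the complex I assembly factors follow less.

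Most respiratory chain genes went up and down together from one library to the next, and this shared movement was larger than any difference between the 4 groups. It was summarised as the mean over the 69 genes of log2(normalized count + 3.03), where 3.03 normalized counts correspond to 0.5 CPM. From PI1 to PI5 the mean was 7.01, 7.81, 7.62, 7.47 and 7.41, and from PC1 to PC5 it was 7.19, 7.95, 7.54, 7.94 and 8.06. In the cyclic mares it was 7.54, 7.97, 7.12, 8.07 and 7.43 in CI1 to CI5 and 7.77, 8.04, 7.89, 7.08 and 7.46 in CC1 to CC5. Every group held both low and high libraries, and all 4 groups overlapped. The lowest 3 values belonged to PI1, CC4 and CI3, the 3 shallowest libraries, and PC1 came next.

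Group means of this level were 7.46 ± 0.30 in PI, 7.74 ± 0.36 in PC, 7.63 ± 0.39 in CI and 7.65 ± 0.38 in CC (log2 scale, SD, n = 5 each). The highest and the lowest group mean were 0.27 apart, less than the spread of 0.36 between replicates within groups. Differences between groups made up 8.53% of the variance of the level over the 20 libraries. The spread of replicates alone gives group means some share of this kind, which was not subtracted, so 8.53% is not a measured effect of the groups. In bulk tissue, fewer cells that express these genes strongly and less of their RNA per cell cannot be told apart.

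To describe the shared movement, each gene's deviations from its group means were correlated with the mean of the other member genes over the 20 libraries. The points share libraries and depth, and the 2 oviducts of a mare may both be among them, so the coefficients are descriptions. The median Pearson r was 0.88 for the 69 genes and 0.085 for all 14692 features set against the same mean. An r above 0.8 was found for 48 of the 69 genes (69.6%) and for 8.87% of all features, and an r above 0.5 for 62 genes and 26.5% of all features. The closest followers were ATP5B (r = 0.98), ATP5G3, ATP5H and NDUFAB1 (r = 0.97 each), which are 3 ATP synthase subunits and the mitochondrial acyl carrier protein that is also part of complex I.

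The other 7 members stayed at or below an r of 0.5. NDUFAF5 (-0.49) and NDUFAF6 (-0.24) had negative coefficients, NDUFAF7 was at 0.06 and NDUFAF2 at 0.30. These 4 are factors that help to build complex I and are not part of the finished enzyme. The others were NDUFA4L2 (-0.49), a paralog of the complex IV subunit NDUFA4 with few reads here, ATP5S (-0.23), a gene named for the ATP synthase and not one of its standard subunits, and ATP5I (0.39), the small subunit e of the ATP synthase. Of the assembly factors, NDUFAF1 (0.76), NDUFAF3 (0.72) and NDUFAF4 (0.51) did follow the rest. By complex, the median r was 0.93 in complex V, 0.89 in complex IV and in the accessory subunits of complex I, 0.87 in the complex I core and in complex II, 0.80 in complex III with cytochrome c, and 0.30 in the 7 assembly factors of complex I.

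Several other measures moved with the level of these genes, and their part in the shared movement was not tested. The correlation of a member's deviations with those of the log2 read number had a median of 0.68 and exceeded 0.5 for 55 of the 69 genes (79.7%), against 24.5% of all features. The epithelial markers EPCAM and CDH1 had a median r of 0.92 with the mean of the respiratory chain genes. Their summed level ran from 2624 to 5398 normalized counts in PI, from 3051 to 6778 in PC, from 2759 to 6171 in CI and from 3433 to 6515 in CC. The 13 multiciliated markers had a median r of 0.21, the 5 secretory markers one of -0.20, the 6 stromal markers one of 0.44 and the 7 leukocyte markers one of 0.31.

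The summed multiciliated markers ran from 61735 to 78704 normalized counts in PI and from 62002 to 77074 in PC, and from 46708 to 65801 in CI and from 47351 to 71552 in CC. Stromal markers summed to 658 to 4107 in PI, 994 to 3050 in PC, 1507 to 2891 in CI and 856 to 4701 in CC. The summed leukocyte markers were at 437 to 1367 in PI, 641 to 2160 in PC, 457 to 1416 in CI and 536 to 937 in CC. Of the last, the B cell gene MS4A1 had reads in 1 library and CD79A in 10. The groups overlapped in all of these sums.

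**Figure D2:**
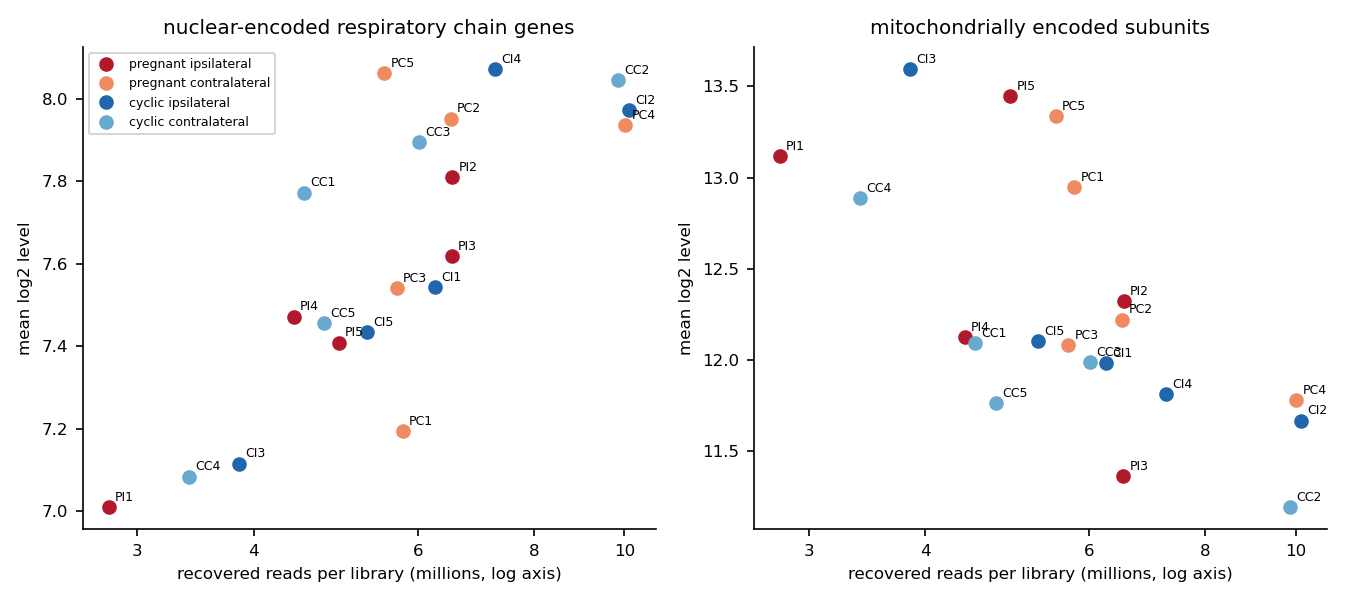
Each point is a library, placed by its recovered reads on a log axis and by the mean log2 level of the 69 nuclear-encoded genes on the left and of 12 mitochondrially encoded subunits on the right. On the left the 3 shallowest libraries, PI1, CI3 and CC4, are lowest, while on the right CI3 is highest at 13.60 and CC2 lowest at 11.19.

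The subunits encoded by mitochondrial DNA went the other way. All 12 of them correlated negatively with the nuclear-encoded genes, with a median r of -0.56, and negatively with the read number, with a median r of -0.71. Their mean log2 level was highest in CI3 (13.60), PI5 (13.45), PC5 (13.34) and PI1 (13.12), and lowest in CC2 (11.19) and PI3 (11.36). PC5 was high in both kinds of gene, so the opposition was not complete. A value of this kind is relative: the read number is scaled by a factor of its own library, which depends on the other genes. The labels give polyA RNA as the molecule but a total RNA kit with removal of ribosomal RNA as the method, so which mitochondrial transcripts the libraries could capture is not settled by them.

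Genes of related tasks in energy metabolism moved with the respiratory chain to different degrees. The 6 carriers of ADP, ATP and phosphate had a median r of 0.89 and the 17 enzymes of the citric acid cycle one of 0.87. The cytosolic enzymes of glycolysis (14 genes) reached 0.73 and the 68 mitochondrial ribosomal proteins 0.72. The 32 assembly factors of complexes II to V had a median of 0.55 and the 8 complex I assembly factors whose symbols do not start with NDUF one of 0.37, above the 0.30 of the NDUFAF genes and below the subunits. The 19 regulators of mitochondrial biogenesis, a list that includes PPARGC1A, NRF1, GABPA, ESRRA and TFAM, had a median of 0.08, which is the level of all features.

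The members also differed in how much they varied. The SD of the log2 level within groups had a median of 0.46 over the 69 genes and of 0.40 over all features. The steadiest were NDUFAF7 (0.18), NDUFV3 and SDHB (0.23 each), and the most variable were NDUFA6 (0.81), ATP5A1 (0.77) and NDUFA2 (0.72). In NDUFA6, an accessory subunit of complex I, the lowest library was CI3 with 79.2 and the highest CC2 with 422 normalized counts. NDUFAF7, a methyltransferase that helps to assemble complex I, stayed between 48.6 (PI4) and 84.7 (CI5) normalized counts.

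**Figure D3:**
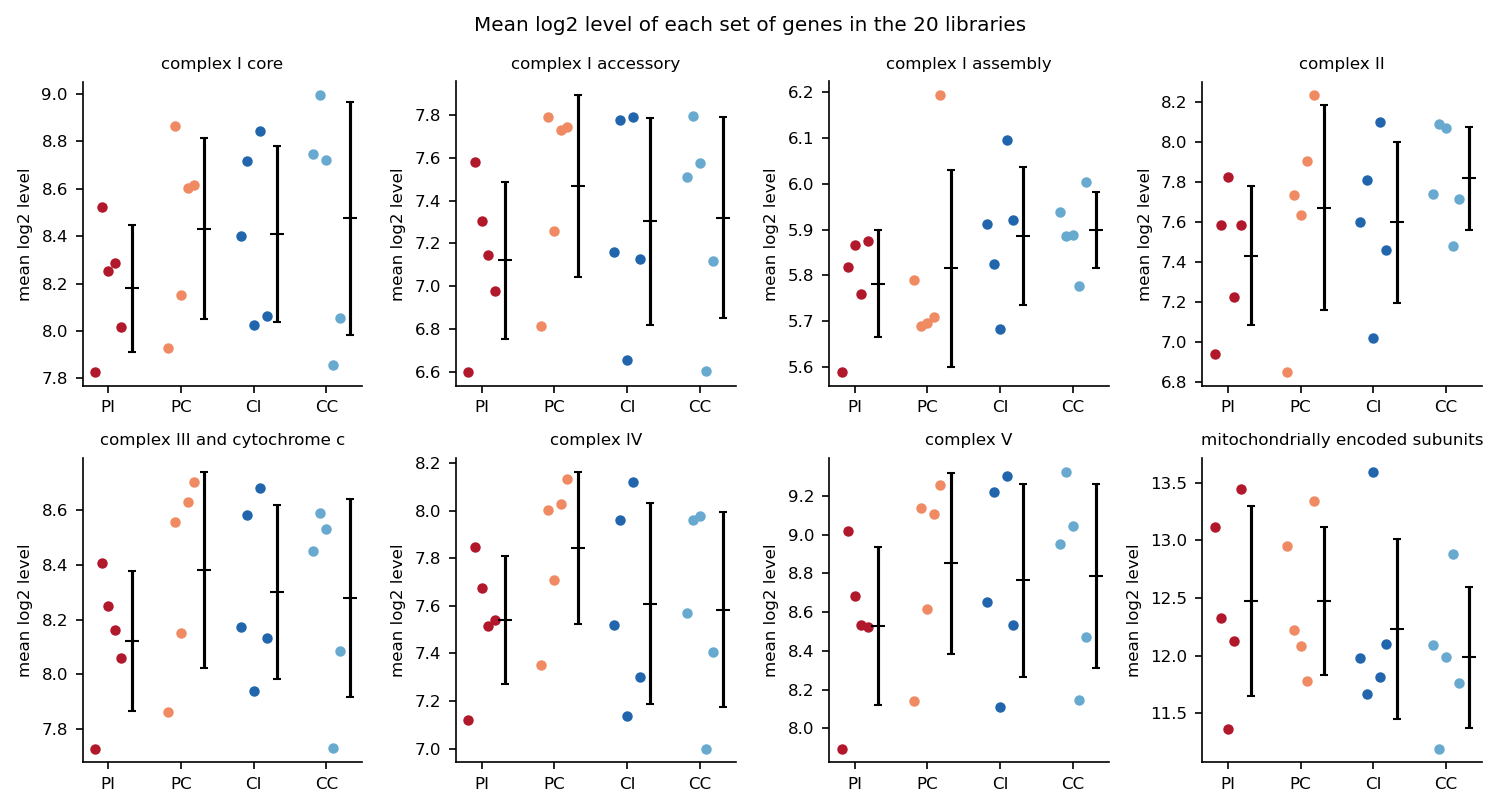
Points are the mean log2 levels of 7 sets of member genes and of the mitochondrially encoded subunits in the 20 libraries, by group, and black bars give the group mean and SD of 5 libraries. In the panels of the 7 member sets the groups overlap, and the assembly factors of complex I span the narrowest range, from 5.59 to 6.19.

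Complex I supplied 36 of the tested genes. Its 7 core subunits, which carry out the electron transfer, include NDUFS1, an iron-sulfur protein. From PI1 to PI5, NDUFS1 was at 394, 612, 578, 492 and 587 normalized counts, and from PC1 to PC5 at 496, 790, 571, 669 and 852. It was at 548, 635, 472, 842 and 518 from CI1 to CI5 and at 717, 713, 703, 528 and 451 from CC1 to CC5. PI1 was the lowest library of all and PC5 the highest, and the groups overlapped.

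Among the 22 accessory subunits listed here, NDUFA1 is a small membrane protein that complex I needs for its assembly. Its normalized counts from number 1 to number 5 were 58.6, 156, 142, 129 and 96.9 for PI, and 109, 194, 146, 202 and 218 for PC. For CI they were 119, 160, 108, 173 and 114, and for CC 167, 149, 155, 83.5 and 77.0. PC held the 3 highest of the 20 values, and its 2 lowest lay inside the range of PI. NDUFB11, another membrane subunit, was at 127, 184, 141, 169 and 111 in PI and at 129, 214, 203, 278 and 235 in PC. It was at 149, 223, 99.1, 206 and 137 in CI and at 161, 270, 220, 73.5 and 140 in CC, so that CC4 was lowest and the groups overlapped.

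The 7 NDUFAF genes code for assembly factors. NDUFAF5, which hydroxylates the core subunit NDUFS7, was at 49.2, 30.1, 38.2, 35.2 and 24.8 in PI and at 37.7, 26.4, 37.5, 24.5 and 45.5 in PC. The cyclic libraries had 42.5, 25.6, 39.6, 28.8 and 39.6 in CI and 29.0, 28.7, 30.7, 30.1 and 33.3 in CC. PI1, one of the lowest libraries for the subunits, was the highest for NDUFAF5. The mean log2 level of the 7 factors was 5.78 ± 0.12 in PI, 5.82 ± 0.22 in PC, 5.89 ± 0.15 in CI and 5.90 ± 0.08 in CC (SD, n = 5 each).

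**Figure D4:**
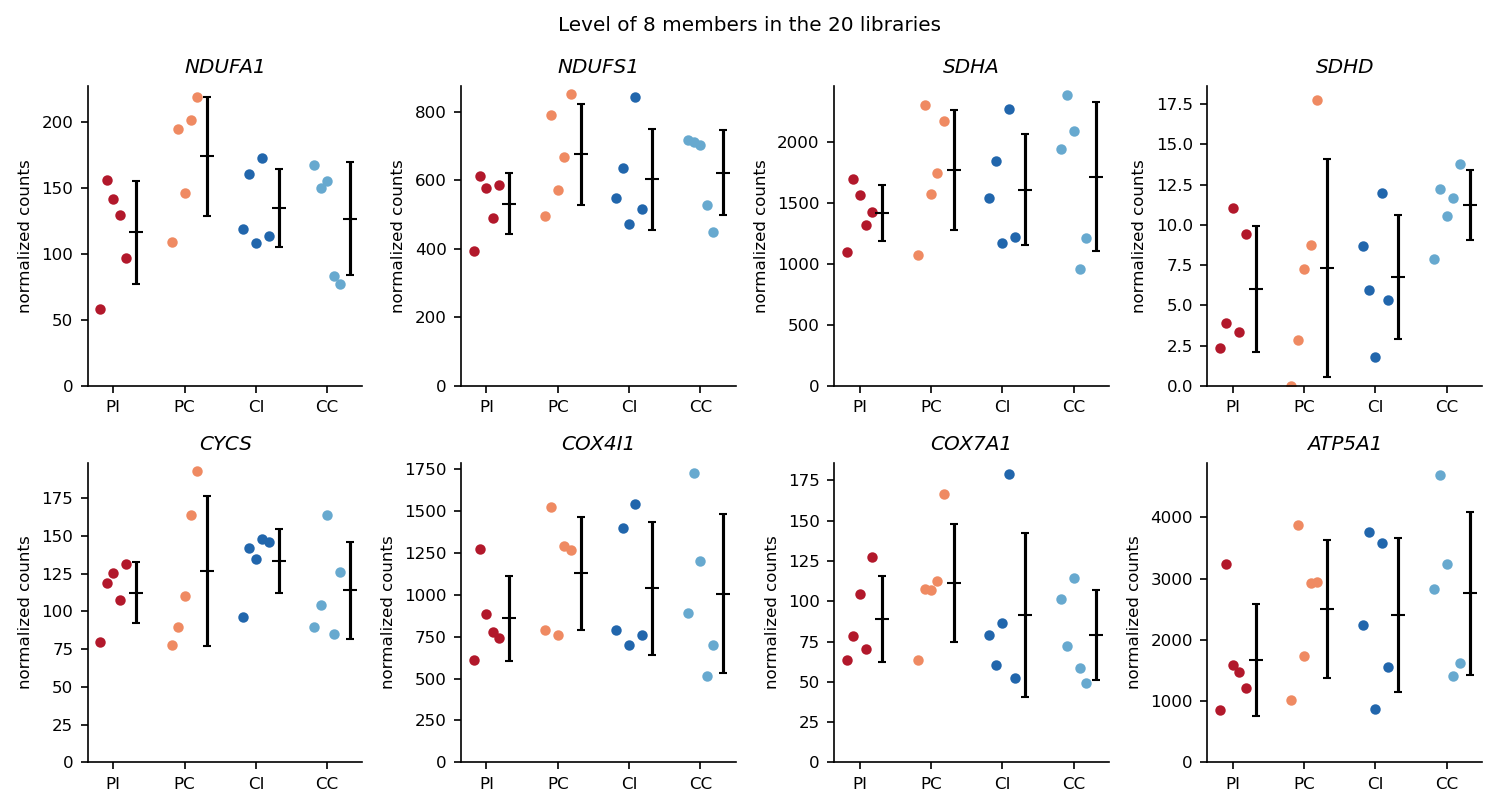
Normalized counts of 8 member genes in each library, by group, with the group mean and SD of 5 libraries in black and every axis starting at 0. NDUFA1 has its 3 highest points in PC, SDHD lies between 0 and 17.7, and in each panel the ranges of the 4 groups overlap with at least one other group.

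Complex II, succinate dehydrogenase, is also an enzyme of the citric acid cycle and has only nuclear-encoded subunits. SDHA, its flavoprotein, was at 1097, 1698, 1570, 1324 and 1426 in PI and at 1075, 2309, 1574, 1746 and 2177 in PC. It was at 1545, 1846, 1171, 2271 and 1227 in CI and at 1947, 2392, 2091, 959 and 1211 in CC. PI spanned the narrowest range, which lay inside those of PC and CC and overlapped that of CI. SDHB, the iron-sulfur subunit, ranged from 221 to 381 and the membrane anchor SDHC from 157 to 513 over the 20 libraries.

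SDHD, the other membrane anchor of complex II, was counted with 0 to 20 reads per library only. Its normalized counts were 2.34, 3.89, 11.0, 3.35 and 9.45 in PI and 0, 2.83, 7.29, 8.77 and 17.7 in PC. They were 8.69, 5.96, 1.8, 12 and 5.36 in CI and 7.91, 12.2, 10.6, 11.7 and 13.8 in CC. CC was the group with no library below 7.91, but PC5 held the highest value. PI1, PI4, PC1 and CI3 had fewer than the 3 reads of the floor.

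In complex III, UQCRC1 and UQCRC2 are the core proteins, UQCRFS1 is the iron-sulfur protein named after Rieske and CYC1 is cytochrome c1. UQCRC1 was at 384, 784, 452, 560 and 417 in PI, 433, 1017, 459, 978 and 703 in PC, 633, 789, 488, 981 and 471 in CI, and 897, 1099, 830, 357 and 452 in CC. The highest PI library, at 784, was below the highest library of each other group, and the groups overlapped. CYCS, the soluble cytochrome c that carries electrons to complex IV, was at 79.7, 119, 126, 107 and 131 in PI and at 77.5, 89.6, 110, 164 and 193 in PC. It was at 96.6, 142, 135, 148 and 146 in CI and at 89.6, 104, 164, 85.2 and 126 in CC. CI2 to CI5 lay close together, between 135 and 148, and no group stood apart.

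Complex IV, cytochrome c oxidase, was represented by 13 members. COX4I1, the ubiquitous form of the regulatory subunit 4, was at 612, 1272, 887, 775 and 744 in PI and at 790, 1522, 761, 1292 and 1268 in PC. It was at 789, 1400, 701, 1538 and 761 in CI and at 892, 1727, 1198, 513 and 702 in CC. All 4 groups held libraries as low as 790 and as high as 1198 normalized counts. Of its paralog COX4I2, the form known from lung, no library had more than 6 reads. The muscle form COX6A2 had at most 2 reads and COX7B2, known from testis, 1 read in PI5.

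COX7A1, the heart and muscle form of subunit 7a, was present beside the widespread COX7A2. COX7A1 was at 63.3, 78.8, 104, 70.5 and 128 in PI and at 63.5, 107, 107, 113 and 166 in PC. The cyclic libraries had 79.2, 60.2, 86.4, 179 and 52.5 in CI and 101, 72.0, 114, 58.4 and 49.4 in CC. CI4 was the highest library and CC5 the lowest, and the groups overlapped. The log2 ratio of COX7A1 to COX7A2 was -0.50 ± 0.53 in PI, -0.67 ± 0.36 in PC, -0.62 ± 0.71 in CI and -0.88 ± 0.27 in CC (SD, n = 5 each), which differed by less than the spread between replicates. This ratio also depends on the lengths of the 2 transcripts, which were not used here, so it is read between groups only. NDUFA4, once assigned to complex I and now known as a complex IV subunit, ranged from 227 to 619, while NDUFA4L2 had 0 to 10 reads per library.

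Complex V contributed 11 subunits. ATP5A1 and ATP5B code for the alpha and beta subunits of the catalytic head. ATP5A1 was at 851, 3231, 1598, 1480 and 1215 in PI and at 1016, 3883, 1734, 2921 and 2947 in PC. It was at 2242, 3756, 868, 3579 and 1557 in CI and at 2826, 4698, 3244, 1404 and 1617 in CC. PI had 4 of its 5 libraries at or below 1598 normalized counts, with PI2 far above them. PC1, CI3, CI5 and CC4 were below 1598 as well. ATP5G1, ATP5G2 and ATP5G3 are separate genes for the same mature subunit c of the membrane ring. Their log2 ratio ATP5G1 to ATP5G3 was -0.95 ± 0.12 in PI, -0.61 ± 0.12 in PC, -0.94 ± 0.21 in CI and -0.73 ± 0.29 in CC (SD, n = 5 each). That of ATP5G1 to ATP5G2 was -1.27 ± 0.26, -1.14 ± 0.19, -1.49 ± 0.34 and -1.47 ± 0.08, and that of ATP5G2 to ATP5G3 was 0.32 ± 0.32, 0.53 ± 0.28, 0.55 ± 0.33 and 0.74 ± 0.24, in the same order and with the same n. PI and PC overlapped in the ratios to and of ATP5G2 and did not in the first ratio, where PI ran from -1.08 to -0.79 and PC from -0.75 to -0.47. PC and CC did not overlap in the ratio of ATP5G1 to ATP5G2, with -1.37 to -0.93 in PC and -1.59 to -1.40 in CC. No ratio was tested, and the 3 are not independent of each other. The other ratios computed were COX7A1 to COX7A2, COX7A2L to COX7A2, ATP5A1 to ATP5I and NDUFS1 to NDUFAF7. In each of them all groups overlapped. How often ratios of further gene pairs do not overlap between groups was not computed, so these separations are descriptions only.

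Differences between groups were tested with limma on log2(normalized count + 3.03) over all 14692 features, with Benjamini-Hochberg adjustment. An adjusted p under 0.05 was reached by 0 of the 69 respiratory chain genes in each of the 5 comparisons, and by 0.0% of all features. The tests by edgeR and by DESeq2 on the recovered reads also gave 0 member genes. DESeq2 gave no adjusted p for 4 of the 69 genes in PC minus CC, so these could not pass there. An unadjusted p under 0.05 was found for 1 member in 1 comparison, by each of the 3 tools, and it was NDUFA1 each time. Fold changes on this scale understate the change of genes with low values.

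Between pregnant and cyclic mares on the ovulation side (PI minus CI), 60 of the 69 genes had a lower mean in pregnancy, with a median log2 difference of -0.17 and a range of -0.53 to 0.44. The upper end was NDUFA4L2, counted with complex IV here and with 0 to 10 reads per library. Of all features 51.9% were lower, with a median of -0.01. No member gene had an unadjusted p under 0.05, against 3.5% of all features, and none had groups that did not overlap, against 0.592% of all features. NDUFA10, an accessory subunit of complex I, had a log2 difference of -0.37 ± 0.25 (SE; limma, unadjusted p = 0.160, adjusted p = 0.999). NDUFB10, another accessory subunit, differed by -0.27 ± 0.19. All 7 core subunits of complex I (median -0.24), all 4 subunits of complex II (-0.14) and all 6 genes of complex III with cytochrome c (-0.16) were on the lower side, as were 10 of 11 in complex V (-0.27) and 8 of 10 in complex IV (-0.10).

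Leaving out 1 library moved that median between -0.06 and -0.28. It was -0.06 without PI1 or without CI4, -0.08 without CI2 and -0.28 without CI3. With the log2 read number as a covariate it was 0.04, with 42 of the 69 genes higher. In the same comparison EPCAM differed by -0.24 and CDH1 by -0.17, neither passing the test, and the 6 stromal markers had a median of -0.53 and the 13 multiciliated markers one of 0.22. Of the leukocyte markers 5 of 7 were higher, with a median of 0.48, and of the mitochondrially encoded subunits 11 of 12, with a median of 0.18. The part of these genes and of the read number in the median was not tested.

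On the other side (PC minus CC), 49 of the 69 genes had a higher mean in pregnancy, with a median of 0.09 and a range of -0.73 to 0.48, while 51.8% of all features were higher and 48.2% lower, with a median of 0.01. An unadjusted p under 0.05 was found for none of them and for 4.55% of all features, and 0 of 69 had groups that did not overlap, against 0.585%. NDUFA1 had the smallest p, with a log2 difference of 0.48 ± 0.27 (SE; limma, unadjusted p = 0.096, adjusted p = 1.000). COX7A1 differed by 0.48 ± 0.31 and SDHD, at 0 to 20 reads per library, by -0.73 ± 0.43. Complex IV was on the higher side with all 10 tested genes (median 0.26) and complex III with cytochrome c with all 6 (0.11), whereas 5 of the 7 complex I core subunits (-0.06) and 5 of the 7 assembly factors (-0.09) were on the lower side.

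The direction of this median rested on single libraries. It was -0.06 without CC4, and also without the 3 shallowest libraries. It was 0.01 without PC5, 0.04 without PC2 or CC5, 0.05 without PC4, 0.14 without PC3, 0.16 without CC3, 0.17 without CC2 and 0.24 without PC1. With the read number as a covariate it was -0.07. In this comparison all 13 multiciliated markers were higher, with a median of 0.30, all 7 leukocyte markers with one of 0.76 and all 12 mitochondrially encoded subunits with one of 0.45, while all 6 stromal markers had lower means (-0.47). Their part in the result was not tested.

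**Figure D5:**
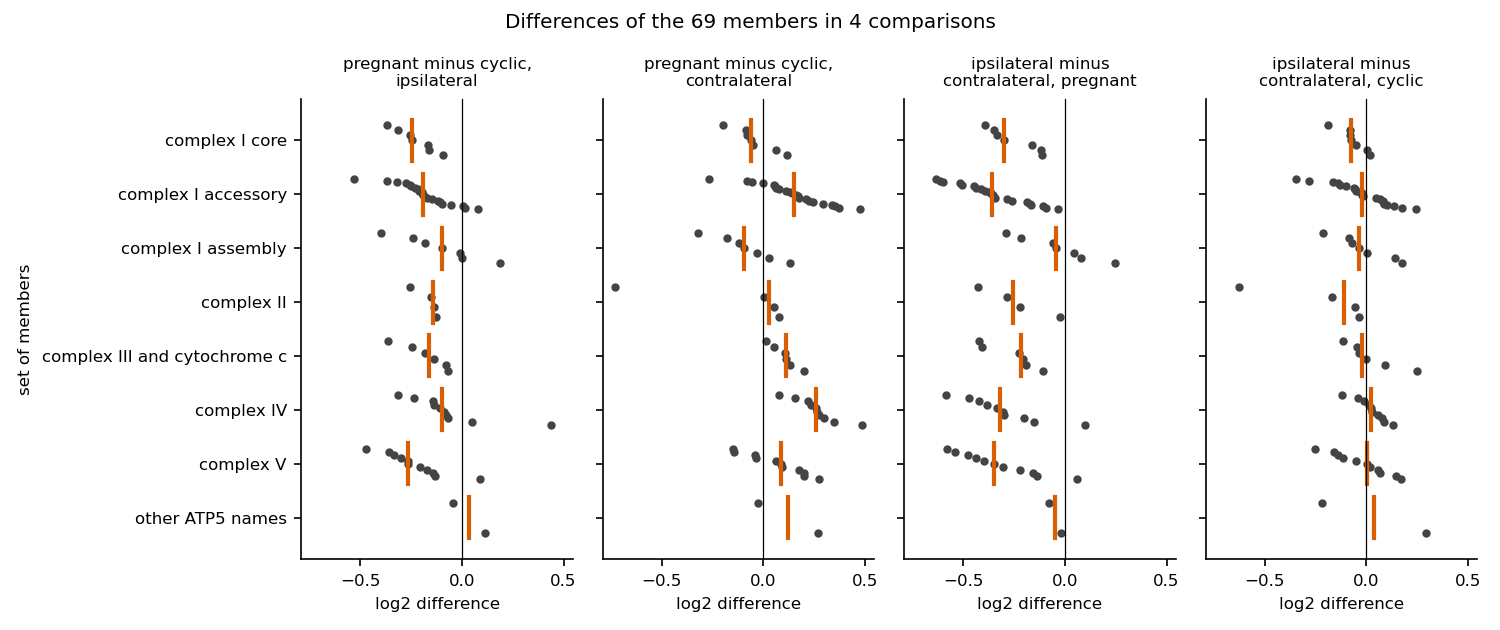
Each point is the log2 difference of 1 of the 69 genes in 4 comparisons, in rows by complex, and the orange bars are the medians of the rows. The points lie mostly left of 0 for ipsilateral minus contralateral in pregnancy, where 64 of 69 are negative, and on both sides of 0 in the cyclic mares, where 39 of 69 are.

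Within pregnant mares (PI minus PC), 64 of the 69 genes had a lower mean in the oviduct on the ovulation side, where the embryo is expected, with a median log2 difference of -0.30. Among all features 55.4% were lower, with a median of -0.03. The comparison shares PI and PC with those above and is no independent evidence. Every one of the 22 accessory subunits of complex I (median -0.36), the 7 core subunits (-0.30), the 4 subunits of complex II (-0.25) and the 6 genes of complex III with cytochrome c (-0.22) was on the lower side. So were 10 of 11 genes of complex V (-0.35) and 9 of 10 of complex IV (-0.32), but only 4 of the 7 complex I assembly factors (-0.05).

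In this comparison, fitted without pairing the libraries by number, NDUFA1 was the one member with an unadjusted p under 0.05. Its log2 difference was -0.60 ± 0.27 (SE; limma, unadjusted p = 0.040, adjusted p = 0.999). That is 1 gene of 69, while 0.762% of all features had such a p in either direction and 0.402% with a lower mean. NDUFS1 differed by -0.33 ± 0.19, NDUFB11 by -0.51 ± 0.29 and ATP5A1 by -0.58 ± 0.44. Again 0 of 69 genes had groups that did not overlap, against 0.136% of all features. The number of members with an unadjusted p under 0.05 changed with single libraries: it was 11 without PC1, 2 without PI2 or CC4, and 0 without PI1, PI5, PC2, PC4 or PC5. It was 0 with the read number as a covariate and 2 with the replicate number as a block. The share of all features was not computed for these other fits, so their counts have no background to be read against.

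The pregnant replicate numbers can be read as pairs, because same-numbered PI and PC libraries deviated together over all features. Taken pair by pair, the log2 difference of the mean over the 69 genes was -0.18 in number 1, -0.14 in number 2, 0.08 in number 3, -0.46 in number 4 and -0.65 in number 5. The genes lower on that side numbered 54, 53, 23, 64 and 68 of 69 in pairs 1 to 5. Pair 3 thus went against the other 4. A total of 14 genes were lower in all 5 pairs and 35 in 4 of them. The shares of all features were not computed for any of these pair counts. Genes that move together are also not separate evidence, so the counts are descriptions. The 14 were NDUFV1 of the complex I core, NDUFA1, NDUFA3, NDUFA10, NDUFB9 and NDUFB11 of its accessory subunits, UQCRC1 and UQCRC2 of complex III, COX5A, COX6A1 and COX7A1 of complex IV, and ATP5A1, ATP5B and ATP5G1 of complex V.

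In pairs 1 to 5 the log2 difference of NDUFA1 was -0.86, -0.31, -0.04, -0.63 and -1.15, and that of ATP5A1 was -0.26, -0.26, -0.12, -0.98 and -1.28. The sizes differed widely between pairs, and pair 3 was near 0 for both. The mean of EPCAM and CDH1 was also lower in all 5 pairs, with differences of -0.22, -0.11, -0.01, -0.72 and -0.51. These 2 markers differed most in pairs 4 and 5, as did the respiratory chain genes. The secretory markers, also epithelial, differed by -0.40, -0.17, 0.08, 0.15 and 0.19 in pairs 1 to 5. Leukocyte markers differed by 0.12, 0.28, -0.03, -0.68 and -0.31, stromal markers by -0.65, 0.88, -0.05, -0.35 and 0.24. For smooth muscle markers the values were 0.15, 0.50, -0.93, -0.30 and -0.30. All 4 endothelial markers (PECAM1, VWF, CDH5 and KDR) had lower means in this comparison, with a median of -0.39. Their mean differed by -0.53, 0.48, -0.75, -0.89 and -0.65 in pairs 1 to 5, and their sum ran from 223 to 1481 normalized counts in PI, 262 to 1502 in PC, 294 to 877 in CI and 296 to 1082 in CC. The multiciliated markers differed by -0.03, 0.01, 0.00, -0.11 and -0.13, and the mitochondrially encoded subunits by 0.17, 0.10, -0.72, 0.34 and 0.11. The part of these in the difference was not tested. PI had fewer reads than PC in pairs 1, 4 and 5 (2795168 against 5781668, 4415169 against 10015464 and 4936111 against 5522831). It had more in pairs 2 and 3 (6536856 against 6510221 and 6529308 against 5700580).

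The median over the 69 genes of -0.30 was -0.17 without PI1 and -0.12 without PI1, PI4 and CI3, in which 1 feature took over 14% of the reads. It was -0.03 with the read number as a covariate, with 42 genes still lower.

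In cyclic mares (CI minus CC), 39 of the 69 genes had a lower and 30 a higher mean on the ovulation side, with a median of -0.02, while 48.6% of all features were lower and 51.4% higher. None had an unadjusted p under 0.05 (0.286% of all features did) and none had groups that did not overlap (0.0681% of all features). SDHD differed by -0.62 ± 0.43, ATP5S by 0.29 ± 0.26 and CYCS by 0.25 ± 0.24 (SE; limma, adjusted p = 1.000 for each). No complex leaned far: the medians ran from -0.11 in complex II to 0.03 in complex IV. Leaving out 1 library moved the median from -0.17 (without CC4) to 0.11 (without CI3). Other omissions that moved it by more than 1.5 times gave -0.13 without CI4, -0.11 without CI2, -0.07 without CC5, 0.03 without CI5, CC1 or CC3 and 0.09 without CC2. It was -0.14 with the read number as a covariate.

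The interaction, the PI minus CI difference minus that of PC minus CC, tests whether the pregnancy difference depends on the side. It was below 0 for 64 of the 69 genes, with a median of -0.28, and for 56.6% of all features, with a median of -0.04. Since it is built from the 4 groups above, this count repeats them. An unadjusted p under 0.05 was found for 0 of 69 genes and 0.32% of all features. NDUFA1 had the smallest p, with an interaction of -0.73 ± 0.39 (SE; limma, unadjusted p = 0.072, adjusted p = 1.000). ATP5J2, subunit f of the ATP synthase, had -0.54 ± 0.33 and NDUFB3 of complex I -0.46 ± 0.34. The median was -0.13 without PI1 or CC4, -0.15 without CI4, -0.16 without CI2, -0.42 without CI3, -0.43 without PC1 and 0.12 with the read number as a covariate.

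None of the genes in the other lists of energy metabolism, mitochondrial or, for glycolysis, cytosolic, passed the test either: 0 of the 12 mitochondrially encoded subunits, 0 of 32 assembly factors of complexes II to V, 0 of 8 other complex I assembly factors, 0 of 6 carriers, 0 of 17 citric acid cycle enzymes, 0 of 14 glycolysis enzymes, 0 of 68 mitochondrial ribosomal proteins and 0 of 19 regulators, in each of the 5 comparisons. In PI minus PC, 6 of 6 carriers (median -0.32), 16 of 17 citric acid cycle enzymes (-0.26), 14 of 14 glycolysis enzymes (-0.22) and 54 of 68 mitochondrial ribosomal proteins (-0.15) were on the lower side, beside the 64 of 69 respiratory chain genes. The mitochondrially encoded subunits were not, with 8 of 12 higher and a median of 0.02. The regulators had 12 of 19 lower and a median of -0.03.

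Among single genes of these lists, HK1, a hexokinase that starts glycolysis, had the smallest p, with a PC minus CC difference of 0.60 ± 0.17 (SE; limma, unadjusted p = 0.00187, adjusted p = 0.970). ATP6, the mitochondrially encoded subunit a of the ATP synthase, differed by 1.26 ± 0.51 in the same comparison, and COX19, a copper-handling assembly factor of complex IV, by -0.59 ± 0.26 in PI minus CI. PPARGC1A, the coactivator that promotes mitochondrial biogenesis, differed by 0.02 in PI minus CI and 0.01 in PC minus CC. TFAM, which packages and transcribes mitochondrial DNA, differed by -0.20 and -0.02, and NRF1, a transcription factor of many respiratory chain genes, by 0.16 and -0.02.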

How the data were processed

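RNA sequencing was analysed in 20 libraries from 4 groups of 5. The authors deposited 1 table of counts normalized by the trimmed mean of M values (TMM), read here as a signal on a common scale per the file headers; CASAVA 1.8 is named per the submitters' processing notes. The aligner, counter, build, annotation and strand setting are, in the sources used here, not given, so reads of overlapping, antisense or near-identical genes (such as processed pseudogenes) may be split. Dividing each deposited value by its library's smallest step gave whole reads for 100% of values within 0.01 reads; totals were 2795168 to 10126484.

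Features above 1 CPM (6.07 normalized counts) in at least 5 libraries were kept. limma 3.58.1 (R 4.3.3) was fitted on log2(normalized count + 3.03), with 4 group means, a trended robust empirical Bayes variance and Benjamini-Hochberg adjustment over 14692 features. edgeR 4.0.16 and DESeq2 1.42.0 on recovered reads, other pseudocounts, filters and covariates, and omitted libraries were alternatives. On simulated data for PI minus CI (14434 genes), limma recovered 45 of 98 genes changed 2-fold and 83 of 100 changed 4-fold, with 4 false among 132 calls. Library pairs within groups, and same-numbered pairs of the 2 sides, differed beyond counting noise. The lowest chi-square per degree of freedom over all 50 pairs was 4.93, for PI1 against PC1. The highest was 199.9, for PI4 against PC4, where 1 feature took 27.8% of the reads of PI4 and 0.953% of those of PC4. Within groups the lowest was 17.3, for CI2 against CI4, and the highest 147.6, for PI3 against PI4.

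Same-numbered pregnant libraries correlated in their deviations from group means (0.70, 0.60, 0.53, 0.64 and 0.59 for numbers 1 to 5). The numbers were therefore taken to pair them in the pair-by-pair differences only. The main fit did not pair libraries. The labels give the numbers but do not state shared mares.

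Named genes were the members with the smallest p per comparison, the most and least like the rest, the most and least variable, and a preset few by role; each was tested in 5 comparisons. One gene that this rule names is not reported here. Members and lists were chosen with earlier results of these data known. Of the 72 members, 62 matched a RefSeq symbol or synonym. Promoter motifs, protein sequences and levels per transcript length were not analysed here. COX6B2, COX6C, COX7B, COX7C, COX8A, COX8C and ATP5O were not among the listed symbols. Counts of subunits per complex therefore cover the genes listed by symbol, not every subunit of the enzyme.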

Additional observations from a re-analysis of the deposited data

Results flagged for a closer look

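In 7 of 192 groups of 5 libraries examined, 1 library stood farther from the others than Dixon's 95% critical value allows (0.71). Chance alone gives about 1 in 20 such groups. ATP5S was at 158 normalized counts in PI5, against 115 to 126 in the other PI libraries. COX7A1, the muscle form of complex IV subunit 7a, was at 179 in CI4, against 52.5 to 86.4. CYCS, cytochrome c, was at 96.6 in CI1, against 135 to 148. NDUFA4L2 was at 9.37 in PI1, against 3.35 to 4.86, which was 4 reads in PI1, and at 0.80 in CI4, against 2.98 to 3.86, which was 1 read in CI4. NDUFV3 of complex I was at 91.4 in PI1, against 120 to 128. The mean log2 level of the complex I assembly factors was 6.19 in PC5, against 5.69 to 5.79.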

How the results depend on the processing

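None of the 69 respiratory chain genes passed the adjusted threshold in any of 5 comparisons under any of 33 alternatives, 20 of which left out 1 library. In DESeq2, 4 of the 69 had no adjusted p in PC minus CC. The median log2 difference over the 69 genes was less steady. With the log2 read number as a covariate, the interaction median was 0.12 in place of -0.28. Over the omissions of 1 library, the median ran from -0.28 to -0.06 in PI minus CI, from -0.06 to 0.24 in PC minus CC, from -0.44 to -0.17 in PI minus PC, from -0.17 to 0.11 in CI minus CC and from -0.43 to -0.13 in the interaction. Without the 3 shallowest libraries (PI1, CI3 and CC4), an alternative chosen after seeing the data, the medians were -0.18, -0.06, -0.17, -0.03 and -0.14 in that order. CPM without TMM gave 0.03 in PC minus CC and -0.09 in CI minus CC. Without PI1, PI4 and CI3, in which 1 feature took many reads, the CI minus CC median was 0.11, and with the multiciliated markers as a covariate that of PC minus CC was 0.15. With the replicate number as a block (the numbers 3 and 4 of the cyclic mares did not deviate together, with correlations of 0.02 and -0.04), no call changed: 0 genes passed, 2 had an unadjusted p under 0.05 in PI minus PC and 1 in the interaction. Over the omissions of 1 library that number was 0 to 11 in PI minus PC, 0 to 2 in PC minus CC, 0 or 1 in PI minus CI and in the interaction, and 0 in CI minus CC. The share of all features with such a p was not computed for these alternatives. Alternatives not named here or beside a result kept the direction of each median. SDHD, NDUFA4L2, COX4I2, COX6A2 and COX7B2 were counted with at most 20 reads per library, so a few reads more or less change their values. The causes of these movements were not tested.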
